A study of Zea mays with 2 samples.

Results

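In endosperm of the maize defective kernel mutant dek37, 90 of the 56848 entries of the expression table stood at 5 RPKM or more while the same entries stood below 0.5 RPKM in wild-type (WT) endosperm. RPKM are reads scaled to the length of the entry and to the reads of the library. The 90 entries lay on 86 of 50685 distinct loci. They were chosen by these 2 thresholds on the deposited values, so their low level in WT and their higher level in dek37 are the choice itself and are given below as a description.

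The study compared transcripts of endosperm taken 18 days after pollination from WT kernels and from kernels of the genotype dek37. Each genotype was represented by 1 library, of 18139532 reads (WT) and 19106174 reads (dek37) as read back from the RPKM values. The labels give the source as kernel and the tissue as endosperm. They give neither the inbred background nor the number of kernels. No difference below has a replicate check, and no p-value can be given. In bulk endosperm, more cells of a type and more RNA per cell cannot be told apart.

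As background, the maize endosperm at this age is filling with storage protein and starch, and dek mutants are named for kernels in which this filling fails. DEK37 is known as a protein of the pentatricopeptide repeat type, a class of RNA-binding proteins encoded in the nucleus and imported into organelles, where members splice, edit or stabilise organelle transcripts. Loss of respiratory complex I in plants is known to raise nuclear genes such as those of alternative oxidase. Whether any entry described here is such a gene was not determined, because the entries are given by chromosome, start and end alone. They carry no gene names, the sources used here name no genome build, and positions within exons, introns or UTRs were not analysed. Starts are printed 1-based.

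Levels reached in dek37 were moderate. The 90 entries had a median of 7.34 RPKM in dek37 (binomial 95% interval of the median over entries 6.40 to 8.42), with a range from 5.01 to 40.3 RPKM. Of these, 62 lay below 10 RPKM, 15 from 10 to below 20 RPKM and 13 at 20 RPKM or more. The 10 highest held 31.4% of the summed RPKM of the group. In WT the same entries had a median of 0.304 RPKM and a range from 0.0492 to 0.498 RPKM. Together they made up 0.0803% of the summed RPKM of the dek37 library, and the highest of them ranked 4970 in that library. The entries were therefore a small fraction of the mutant transcriptome, far below its abundant transcripts.

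**Figure D1:**
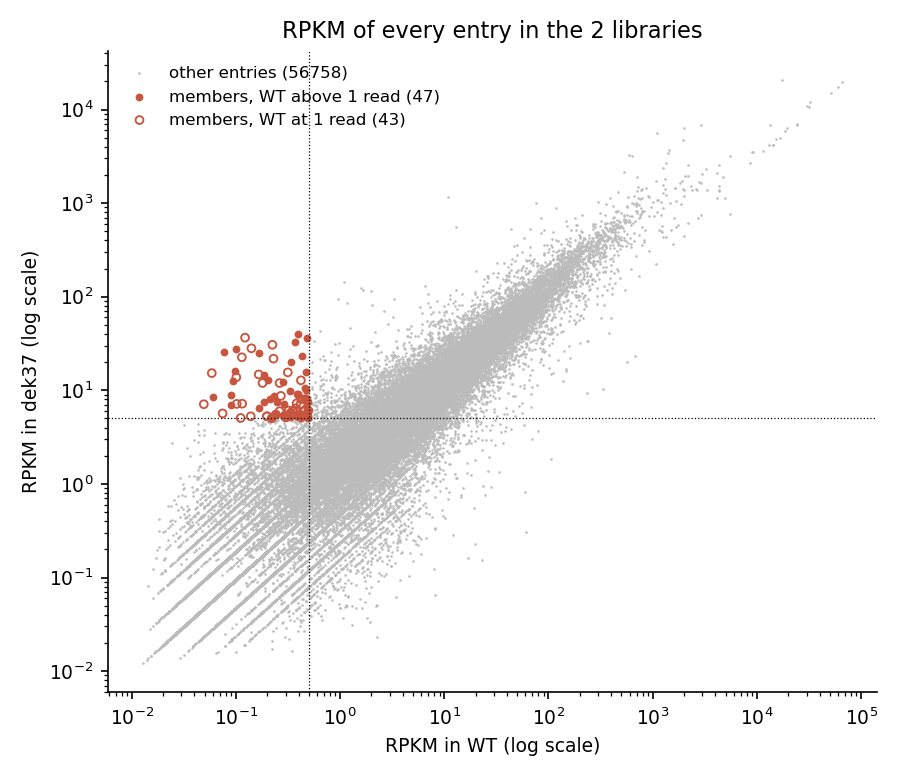
RPKM of every entry in WT (x axis) and dek37 (y axis), both on log scales, with 1 point per entry and dotted lines at 0.5 RPKM in WT and 5 RPKM in dek37. The 90 members fill the upper left corner up to 40.3 RPKM in dek37. Open symbols are the 43 members at the value of 1 read in WT, and grey points are the other 56758 entries.

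Across the whole table, 0.158% of the entries met both thresholds (90 of 56848), and 0.0475% met the mirror image, below 0.5 RPKM in dek37 and at least 5 RPKM in WT (27 of 56848). A high level in dek37 was rare for an entry low in WT. Of the 17907 entries below 0.5 RPKM in WT, 13661 (76.3%) were also below 0.5 RPKM in dek37, 1970 (11.0%) reached 1 RPKM there, 605 (3.38%) reached 2 RPKM and 90 (0.503%) reached 5 RPKM. Of the 15944 entries below 0.5 RPKM in dek37, 797 (4.999%) reached 1 RPKM in WT, 238 (1.49%) reached 2 RPKM and 27 (0.169%) reached 5 RPKM. At each of these levels the share was larger for entries low in WT.

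That asymmetry depended in part on the scaling of the libraries. Where the higher library reached 10 RPKM, the median log2(RPKM + 1) difference was 0.39, dek37 minus WT, so most entries at that level were somewhat higher in dek37. With dek37 divided by the median ratio of those entries, 1.32, 52 entries met the rule and 36 met its mirror image, so that the share of higher among the 2 kinds went from 76.9% to 59.1%. The rescaling amounts to asking for 6.62 RPKM in dek37 as deposited, and all 52 were among the 90. The highest mirror-image entry had 60.8 RPKM in WT, above the 40.3 RPKM of the highest member in dek37.

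**Figure D2:**
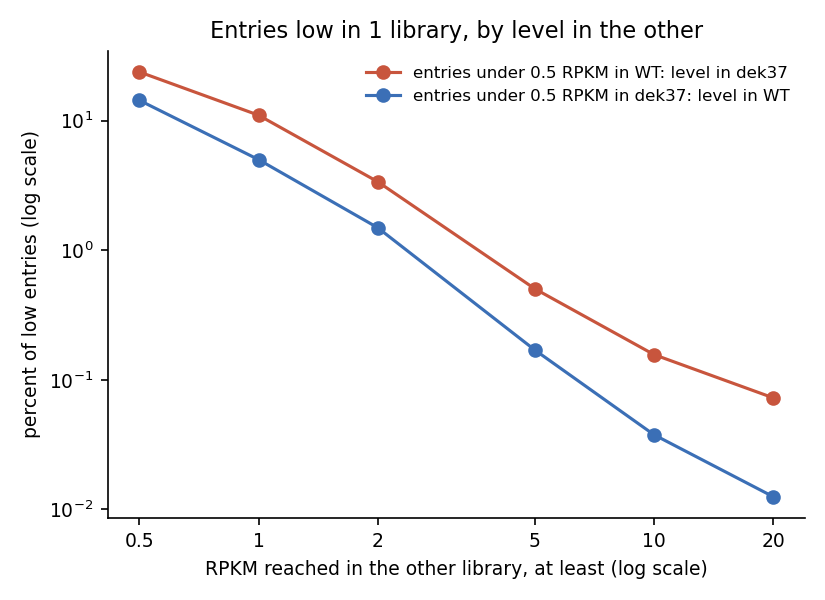
Percent of entries below 0.5 RPKM in one library (y axis, log scale) that reached at least the RPKM on the x axis (log scale) in the other library. The line for entries low in WT lies above the line for entries low in dek37 at all 6 levels, with 0.503% against 0.169% at 5 RPKM.

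How near to silent the entries were in WT differed among them. Reads were recovered as the smallest whole numbers that fit both values of an entry. By this measure 43 of the 90 (47.8%) stood at the value of 1 read in WT, 19 at 2 reads, and 28 at 4 to 14 reads. Neither library holds a zero, so the value of 1 read cannot be told from no read at all. The remaining 47 entries had at least 2 reads in WT and were low there, not without signal. The name "silent" thus fits at most the first 43. For 9 of the 43, doubling the fitted length would exceed the span of the locus, so that more than 1 WT read could not be fitted within the locus. For the rest of the 43, a longer length with 2 WT reads would also fit.

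Fitted length and reads differed between these sets, largely by construction: under a fixed WT threshold, an entry at 1 read can be shorter than one at 2 reads. The 43 entries at 1 WT read had a median fitted length of 204 bases and a median of 24 reads in dek37, with a range from 12 to 314. The 47 others had a median fitted length of 885 bases and a median of 164 reads in dek37, with a range from 26 to 698. The WT threshold itself acts on length, because 1 read gives 0.5 RPKM in WT at 110.3 bases and a shorter entry cannot fall below it. The shortest fitted length among the 90 was 114 bases. By the recovered reads, 16 of the 90 had fewer than 20 reads in dek37 and 40 had 100 reads or more. These are the smallest numbers that fit, so true reads may be higher.

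**Figure D3:**
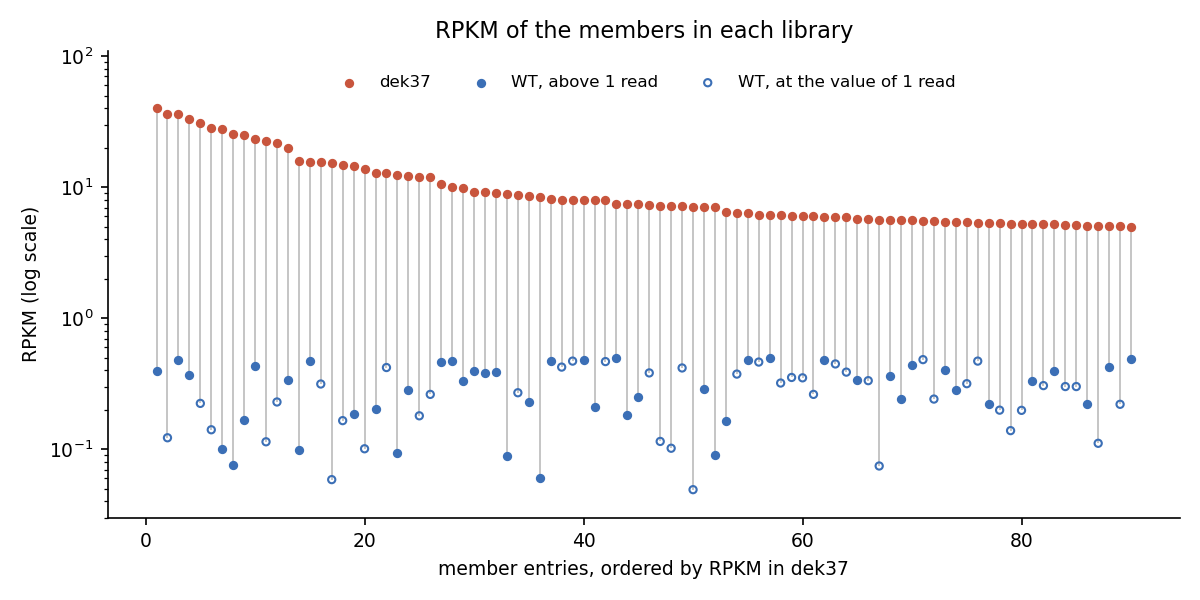
RPKM (y axis, log scale) of the 90 members in dek37 (red) and in WT (blue), ordered by their level in dek37 along the x axis, with a grey line joining the 2 values of an entry. Levels in dek37 fall from 40.3 to 5.01 RPKM, whereas WT values scatter between 0.0492 and 0.498 RPKM. Open blue symbols mark the 43 WT values of 1 read.

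Ratios were bounded by the few WT reads. For the 47 entries with at least 2 WT reads, the ratio of dek37 to WT had a median of 24.7 and a range from 10.2 to 331. The lower end of its exact 95% counting interval, computed on fragments of 2 reads, had a median of 8.71 and lay at 10 or more for 22 of the 47 and at 2 or more for 46. For the 43 entries at 1 WT read, that read was counted as 0 and the interval has no upper end. Its lower end had a median of 2.64 and lay at 10 or more for 9 of the 43 and at 2 or more for 27. An entry whose true WT count was above 1 read would have a different interval, with an upper end. Such intervals reflect counting error alone, since amplified reads lacking molecular identifiers need not be separate molecules. They also ignore the choice of the entries: the rule itself forces every ratio above 10, so their lower ends are a description and no support for a difference.

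The highest level was reached on chromosome 2, from 229584616 to 229585918. This entry had 0.393 RPKM (4 reads) in WT and 40.3 RPKM (432 reads) in dek37, a ratio of 103 with a counting interval from 28.0 to 852. The second, on chromosome 10 from 124096795 to 124097811, had 0.123 RPKM (1 read) in WT and 36.5 RPKM (314 reads) in dek37, with a counting interval of the ratio from 39.9 upward. On the log2(RPKM + 1) scale this entry had the largest difference of the group, 5.06. Both loci held a single entry.

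The third entry lay on chromosome 10, from 90200516 to 90201913, with 0.476 RPKM (4 reads) in WT and 35.9 RPKM (318 reads) in dek37. The fourth, on chromosome 3 from 209655764 to 209656608, had 0.371 RPKM (2 reads) in WT and 33.1 RPKM (188 reads) in dek37. A short locus of 282 bases followed on chromosome 4, from 33126171 to 33126452, with 0.224 RPKM (1 read) in WT and 30.6 RPKM (144 reads) in dek37. Its fitted length of 246 bases nearly fills the locus, so it is 1 of the 9 entries for which no more than 1 WT read could be fitted.

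The remaining 5 of the 10 highest ran from 28.1 down to 23.5 RPKM in dek37. On chromosome 9, from 108209192 to 108210596, 0.141 RPKM (1 read) in WT stood against 28.1 RPKM (210 reads) in dek37. On chromosome 10, from 46056136 to 46058494, 0.101 RPKM (2 reads) in WT stood against 27.6 RPKM (576 reads) in dek37. These 5 thus lay on chromosomes 2, 8, 9 and 10 and, for 1 entry, among the sequences that the files assign to a chromosome named UNKNOWN.

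The member with the most recovered reads in dek37 lay on chromosome 2, from 18644060 to 18645615. It had 0.0765 RPKM (2 reads) in WT and 25.4 RPKM (698 reads) in dek37. Its ratio of 331 was the highest of the 90, with a counting interval from 59.1 to 13124. The UNKNOWN entry, from 6957690 to 6958606, had 0.166 RPKM (2 reads) in WT and 25.1 RPKM (318 reads) in dek37. On chromosome 8, from 88678922 to 88680028, the values were 0.435 RPKM (4 reads) in WT and 23.5 RPKM (228 reads) in dek37.

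Level and ratio picked partly different entries, since 5 of the 10 highest in dek37 were also among the 10 with the largest ratio of deposited values. The other 5 of the latter list had lower levels. On chromosome 2, from 43520090 to 43520593, dek37 had 22.5 RPKM (208 reads) against 0.114 RPKM (1 read) in WT, with a lower interval end of 26.3. On chromosome 10, from 15030707 to 15033081, dek37 had 15.9 RPKM (340 reads) against 0.0985 RPKM (2 reads) in WT. The ratio there was 161, with a counting interval from 28.6 to 6412. The other 3 belonged to loci with 2 entries and are given with those loci.

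A set of 19 entries combined at least 100 reads in dek37 with 1 or 2 reads in WT. Their dek37 levels ran from 7.03 to 36.5 RPKM, and 8 of the 19 stood at 1 read in WT. Beside entries already given, it held on chromosome 6, from 158462505 to 158463053, an entry with 0.101 RPKM (1 read) in WT and 13.8 RPKM (144 reads) in dek37, with a lower interval end of 18.1. This limit on reads was chosen after the values were seen.

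At the thresholds the group had no natural edge. Just inside the WT threshold stood an entry on chromosome 2, from 205957774 to 205959227, whose WT value was 0.498 RPKM and whose dek37 value was 6.15 RPKM. It was followed inward by 0.494 RPKM on chromosome 1, from 273007558 to 273009530, and 0.493 RPKM on chromosome 7, from 87511478 to 87515417. Just outside it, on chromosome 4 from 9657544 to 9658965, stood an entry at 0.503 RPKM in WT against 7.49 RPKM in dek37. A further entry outside, on chromosome 10 from 31488467 to 31492427, had 0.507 RPKM (14 reads) in WT and 22.6 RPKM (658 reads) in dek37, so it exceeded most members in level. The next, on chromosome 2 from 9703708 to 9705132, had 0.509 RPKM in WT against 5.56 RPKM in dek37. Just inside the dek37 threshold stood the same chromosome 7 entry, with 5.01 RPKM (150 reads) in dek37 and 14 reads in WT. Next inward were 2 entries of chromosome 5, with 5.02 RPKM (24 reads) from 167583297 to 167583957 and 5.03 RPKM (100 reads) from 175615163 to 175616656. Just outside, on chromosome 4 from 53904061 to 53904188, stood 4.98 RPKM (12 reads) in dek37 and 0.438 RPKM (1 read) in WT. It was followed by 4.98 RPKM (120 reads) on chromosome 5, from 10322461 to 10326425, and 4.89 RPKM (30 reads) on chromosome 8, from 39715119 to 39716670. Between 0.5 and 1 RPKM in WT lay 172 further entries with at least 5 RPKM in dek37, and 57 entries below 0.5 RPKM in WT had from 4 to below 5 RPKM in dek37.

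Loci with several entries allowed the 2 libraries to be compared within a locus. Of the 90 members, 22 (24.4%, exact interval 15.997% to 34.6%) shared their locus with another entry, beside 20.5% of all entries and 25.1% of entries with at least 5 RPKM in dek37. These 22 lay on 18 loci with 2 entries each. Whether entries of a locus are transcripts of a gene or share reads is not stated, so they are not independent. At 4 loci both entries were members, and at 14 the other entry was not.

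The 4 loci at which both entries were members lay on chromosomes 1 and 9. On chromosome 9, from 59939835 to 59941693, the entries had 0.0587 and 0.421 RPKM (1 read each) in WT and 15.3 and 12.8 RPKM (274 and 32 reads) in dek37. The counting interval of the ratio began at 34.8 for the first of them and at 3.66 for the other. On chromosome 1, from 140716323 to 140720869, the entries had 0.0746 and 0.230 RPKM (1 and 4 reads) in WT and 5.67 and 8.61 RPKM (80 and 158 reads) in dek37. Both entries of such a locus stood low in WT, so the locus as a whole did too. The 2 other loci were near each other on chromosome 9 and are described with the neighbours.

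Among the other entries of the 14 remaining loci, 7 of 14 were at least 2-fold higher in dek37, a difference of at least 1 on the log2(RPKM + 1) scale. Over all 11672 entries that share a locus, 11.6% passed this limit. The other entries of a member locus may share its reads, and 14 is a small number, so the share of 50% is a description. With dek37 scaled to a median ratio of 1, the count was 5 of 14, and the share over all such entries was not computed. The 7 entries had 2.02 to 115 RPKM in dek37.

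The clearest case was the locus on chromosome 10 from 90200516 to 90201913, whose member had 35.9 RPKM in dek37. Its other entry had 1.98 RPKM (24 reads) in WT and 115 RPKM (1474 reads) in dek37, a ratio of 58.3 against 75.5 for the member. The locus was thus not silent in WT by its second entry. On chromosome 2, from 205957774 to 205959227, the other entry had 2.32 RPKM in WT against 25.1 RPKM in dek37, a ratio of 10.8 against 12.3 for the member. On chromosome 5, from 205147296 to 205148533, the member had 0.465 and 10.6 RPKM and the other entry 2.72 and 21.1 RPKM, WT first. In these 3 loci both entries were several-fold higher in dek37, and the member was the lower of the pair in both libraries.

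On chromosome 5, from 11962859 to 11963981, the other entry missed the rule narrowly, with 0.158 RPKM (1 read) in WT and 4.50 RPKM (30 reads) in dek37. The member there had 0.115 RPKM (1 read) in WT and 7.20 RPKM (66 reads) in dek37. On chromosome 7, from 174746426 to 174748651, the member had 0.0603 RPKM (2 reads) in WT and 8.42 RPKM (294 reads) in dek37, a ratio of 140 with a counting interval from 24.7 to 5549. Its other entry had 0.266 RPKM (1 read) in WT and 2.02 RPKM (8 reads) in dek37. Both entries of these 2 loci were low in WT.

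The last 2 of the 7 had the highest WT levels among the 7. On chromosome 4, from 26914048 to 26914876, the other entry had 4.997 RPKM in WT against 15.2 RPKM in dek37, beside 0.484 and 5.97 RPKM for the member. On chromosome 8, from 167465280 to 167466565, the other entry had 4.87 RPKM in WT against 13.0 RPKM in dek37, beside 0.301 and 5.15 RPKM for the member. The ratio of the other entry, 3.04 and 2.67, was below that of the member, 12.3 and 17.1, at both loci. The recovered reads of the members there were 26 and 18 in dek37.

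The other 7 of the 14 did not pass 2-fold, and they were of 2 kinds. At 4 loci the other entry was above 1 RPKM in both libraries. On chromosome 1, from 291652426 to 291669429, it had 18.0 RPKM in WT against 23.2 RPKM in dek37, while the member had 0.285 RPKM (10 reads) in WT and 5.42 RPKM (200 reads) in dek37. On chromosome 10, from 141564224 to 141572393, it had 10.2 and 13.4 RPKM, WT first, beside a member of 1 and 18 reads. On chromosome 3, from 199650095 to 199660284, it had 7.63 and 14.2 RPKM, beside a member with 0.470 RPKM (4 reads) in WT and 10.04 RPKM (90 reads) in dek37. On chromosome 7, from 95575918 to 95578571, it had 1.27 and 1.75 RPKM, beside a member of 1 and 12 reads. At these loci 1 entry differed strongly between the libraries while its partner differed less than 2-fold. The recovered reads of the member were most at the chromosome 1 and chromosome 3 loci. As the smallest numbers that fit, they do not rank the true reads.

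At the other 3 loci the partner entry stood at the value of 1 read in both libraries. These lay on chromosome 5 from 170602772 to 170603491, on chromosome 9 from 58982553 to 58984175, and on chromosome 9 from 89328442 to 89330633. Their members had 18, 36 and 18 reads in dek37. A partner with so few reads can neither match nor contradict the member. In all, 9 of the 14 other entries had at least 1 RPKM in WT, beside 58.1% of all entries, and 3 had at least 5 RPKM.

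**Figure D4:**
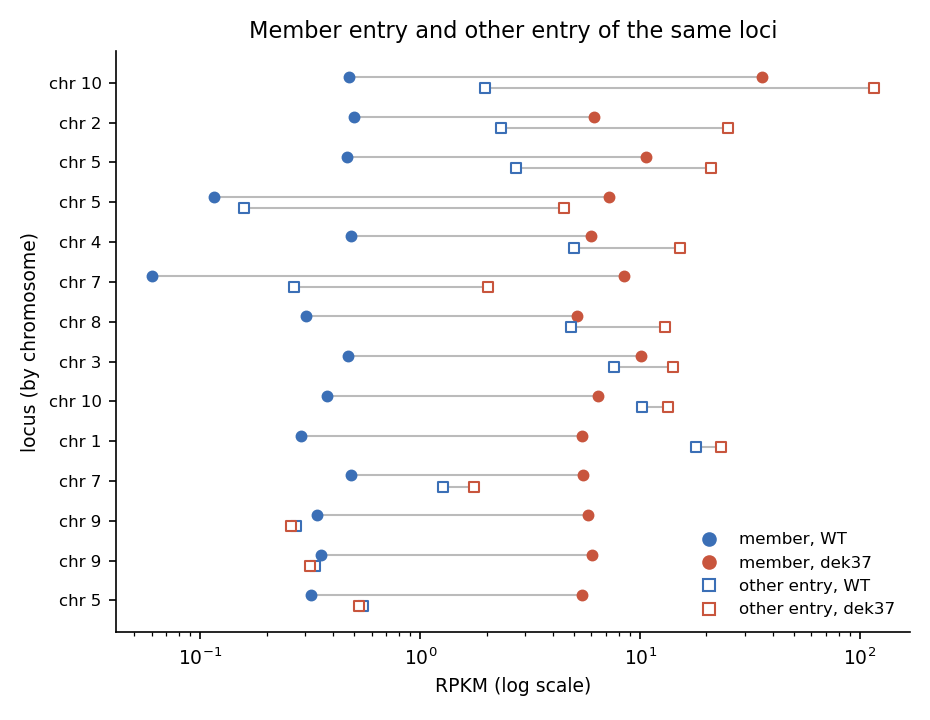
RPKM (x axis, log scale) of the member (filled circles) and of the other entry (open squares) in WT (blue) and dek37 (red) at the 14 loci where the other entry is not a member, ordered by the log2(RPKM + 1) difference of the other entry, largest at the top. Lines join the 2 libraries. The upper 7 loci have a partner at least 2-fold higher in dek37, and the 3 lowest have a partner at 1 read in both libraries.

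The members were spread over all 10 nuclear chromosomes. The number ran from 6 on chromosome 4 to 17 on chromosome 1, and the mitochondrial (97 entries) and chloroplast (34 entries) genomes held 0. With 0.158% of all entries meeting the rule, 0 among so few entries says nothing about these 2 genomes. Chromosome 9 held 11 members, 12.2% of the 90 (exact interval 6.26% to 20.8%), where it held 7.77% of all entries. Chromosome 1 held 18.9% (interval 11.4% to 28.5%) beside 15.2% of all entries. Chromosome 4 held 6.67% (interval 2.49% to 13.9%) beside 10.8%. Each of these 3 intervals includes the share of all entries, and the interval of chromosome 9 takes its 3 loci with 2 member entries as if they were independent.

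The loci of the members were compact. Their median span was 1406 bases (interval 1203 to 1623), with a range from 199 to 17004, and 29 of the 90 (32.2%) spanned less than 1000 bases. Entries with at least 5 RPKM in dek37 had a median span of 3544 bases (interval 3501 to 3591), with 14.4% under 1000 bases. Entries below 0.5 RPKM in WT had a median span of 1577 bases (interval 1542 to 1610), with 34.6% under 1000 bases. In span the members therefore resembled the entries low in WT more than the entries expressed in dek37. Span enters RPKM through length, so it is not fully apart from the rule.

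Member loci were spaced like other loci. The distance to the nearest locus had a median of 2.70 kb (interval 1.87 to 4.65) over the 85 member loci with a chromosome or organelle position, beside 2.84 kb over all 50622 such loci. A neighbour within 1 kb was present for 23 of 85 (27.1%), beside 28.4% of all. Strand is not given in the files, so whether a neighbour lay in the same direction is unknown.

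Within 50 kb of the member loci, edge to edge, lay 344 other loci with 389 entries that were not members. These neighbours were not low in WT as a group, since 61.7% had at least 1 RPKM in WT, beside 58.1% of all entries. Of the 262 that reached 1 RPKM in either library, 40 (15.3%, exact interval 11.1% to 20.2%) were at least 2-fold higher in dek37. The background was 14.8% over all 37491 entries with that level. In the other direction 13 neighbours (4.96%) were at least 2-fold lower, beside 3.86% of all. The median difference of the neighbours was 0.33 (interval 0.26 to 0.42), and that of all entries was 0.36. The share of raised neighbours was thus near the background.

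Closer in, within 5 kb, 15 of 62 neighbours were at least 2-fold higher in dek37, which is 24.2% with an interval from 14.2% to 36.7%. That interval includes the background of 14.8%, and this distance was chosen after the data were seen. Of the 15, 3 had at least 100 RPKM in dek37. On chromosome 6, from 161446540 to 161449925, a neighbour 1.79 kb from a member had 44.0 RPKM in WT against 533 RPKM in dek37, the largest difference among the neighbours (3.57 on the log2(RPKM + 1) scale). The member beside it, from 161451718 to 161452634, had 0.334 RPKM (4 reads) in WT and 5.23 RPKM (66 reads) in dek37. Also on chromosome 6, a neighbour from 147724800 to 147731064 had 58.6 RPKM in WT against 420 RPKM in dek37, and lay 1.62 kb from a member with 0.286 RPKM (2 reads) in WT and 7.07 RPKM (52 reads) in dek37. The third, on chromosome 2 from 207032350 to 207038547, had 53.4 RPKM in WT against 157 RPKM in dek37 and lay 3.97 kb from a member with 0.331 RPKM (14 reads) in WT and 9.91 RPKM (442 reads) in dek37.

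Next to the chromosome 10 locus with 115 RPKM in its second entry, 0.573 kb away, lay an entry from 90198306 to 90199942 with 0.161 RPKM (1 read) in WT and 2.44 RPKM (16 reads) in dek37. Whether it shares reads with that locus was not tested. On chromosome 3, 2 neighbours of the member at 206844204 were at least 4-fold higher in dek37. The first, 7.500 kb away, had 3.06 RPKM (4 reads) in WT and 15.99 RPKM (22 reads) in dek37. The second, 25.5 kb away, had 1.71 RPKM (10 reads) in WT and 21.4 RPKM (132 reads) in dek37. The member itself had 0.469 RPKM (6 reads) in WT and 15.6 RPKM (210 reads) in dek37.

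**Figure D5:**
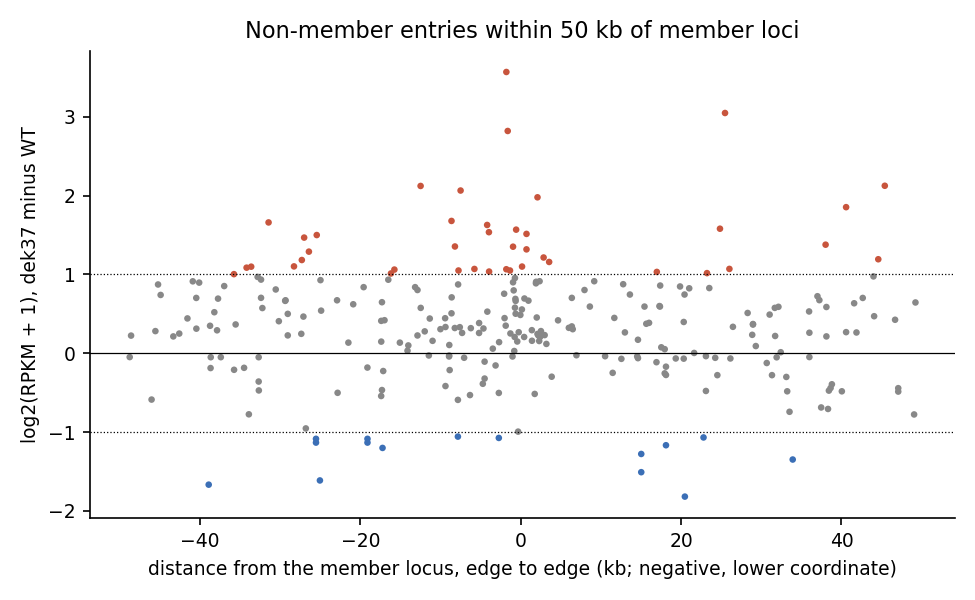
Difference in log2(RPKM + 1), dek37 minus WT (y axis), of non-member entries that reached 1 RPKM in either library, against their distance from the member locus in kb (x axis, edge to edge, negative towards lower coordinates). Red points are at least 2-fold higher in dek37 (40 entries), blue points at least 2-fold lower (13 entries), and dotted lines mark these limits. An entry near 2 member loci appears at both distances. Raised entries occur at all distances, and the highest, at 3.57, lies 1.79 kb from a member.

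Some member loci lay near each other. With a gap of no more than 100 kb, 4 pairs of member loci formed, holding 8 loci and 10 member entries. Member loci were 86 of all 50685 loci, and the number of pairs to be expected from this share was not determined. The tightest lay on chromosome 1 between 123254749 and 123260454, where 2 loci 3.27 kb apart had 0.111 and 0.351 RPKM (1 read each) in WT and 5.07 and 6.001 RPKM (48 and 18 reads) in dek37. No other locus lay between them. Within 100 kb of the pair, 5 further entries reaching 1 RPKM had differences from -0.78 to 0.86, and none was at least 2-fold higher or lower.

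On chromosome 5, between 175608742 and 175616656, 2 member loci flanked another locus that hardly differed. The members had 0.102 and 0.424 RPKM (1 and 8 reads) in WT and 7.16 and 5.03 RPKM (74 and 100 reads) in dek37. The locus between them had 28.9 RPKM in WT against 33.5 RPKM in dek37, a log2 difference of 0.21. The difference was therefore not shared by the whole stretch.

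The pair on chromosome 9, between 7308153 and 7394900, comprised 2 loci with 2 member entries each, 83.3 kb apart. The first locus had 0.0492 and 0.0903 RPKM (1 and 2 reads) in WT and 7.10 and 7.03 RPKM (152 and 164 reads) in dek37. The counting interval of the ratio began at 19.1 for the first of these entries and at 13.6 for the other. The second locus had 0.391 and 0.243 RPKM (8 and 4 reads) in WT and 8.99 and 5.64 RPKM (194 and 98 reads) in dek37. Another locus between them had 2.005 RPKM in WT against 4.63 RPKM in dek37, a difference of 0.91. The 2 member loci had similar spans, 1754 and 1681 bases. Whether they are copies that share reads was not determined.

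The last pair, on chromosome 10 between 45998151 and 46058494, joined an entry of the 10 highest, with 27.6 RPKM in dek37, to a short one 57.4 kb away with 0.463 RPKM (1 read) in WT and 6.16 RPKM (14 reads) in dek37. No entry with at least 1 RPKM other than the members lay within 100 kb of this pair. Between these positions only the 2 member loci were listed. Signal outside listed loci was not measured.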

How the data were processed

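Per the labels' protocols, RNA came from a Trizol extraction with column clean-up and DNase. The submitters' processing notes name Bowtie 0.12.2. The deposited values are RPKM, 1 per entry and library, made by the authors, per the file headers. Build, annotation, counting program and the treatment of reads with several matches are not stated in the labels or headers, so near-identical copies may share reads.

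Both files list the same entries in the same order and were joined on the locus. Starts were read as counted from 0, since RPKM times end minus start came out whole in both libraries 615 times, against 198 times with 1 base added (relative tolerance 1e-06). Library totals came from the commonest product of RPKM and span, taken as 1 read. Reads of an entry are those at the shortest length from 30 to 25000 bases that gives each library 1 read or an even number (relative tolerance 1e-09), so they are minima. That restriction was inferred from the values and no source states it. For a length of 1 kb, 1 read equals 0.0551 RPKM in WT and 0.0523 RPKM in dek37.

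With 1 library per genotype no test was run. Differences are log2(RPKM + 1), dek37 minus WT, which understates changes of low entries. Intervals are exact binomial (Clopper-Pearson) or order-statistic 95% intervals, and those over entries take entries as independent. Named entries are the 10 highest in dek37, the 10 with the largest ratio, the members of pairs within 100 kb, those that share a locus with another entry, the 3 entries nearest each threshold on either side, and others said to be chosen after their values were seen. The raised neighbours were also chosen so. The members and lists were chosen with earlier results of these data known. Planned gene lists need names and were not run. Sequences were not used here. Scripts ran in Python 3.11.15 with numpy 2.4.6, pandas 2.3.3 and scipy 1.17.1, and the functions were tested on simulated data.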

Additional observations from a re-analysis of the deposited data

How the results depend on the processing

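No paired analysis was possible because there is 1 library per genotype, and for the same reason no library could be left out. Against 90 members, the count was 36 and 262 with WT thresholds of 0.25 and 1 RPKM, 605 and 28 with dek37 thresholds of 2 and 10 RPKM, and 52 with the median ratio set to 1 (0 on the log2 scale), while 1 entry per locus gave 78. The median level in dek37, 7.34 RPKM, was 8.52 RPKM with the WT threshold of 0.25 and also 8.52 RPKM with the rescaling, and 2.76 and 15.7 RPKM with the dek37 thresholds of 2 and 10. These shifts follow from moving a threshold. The median span stayed within its interval under all 6 alternatives. The share of other entries of a member locus on the same side, 50% at 2-fold, was 78.6% (11 of 14) for any positive difference, and 28.6% with a pseudocount of 5 and 35.7% with the rescaling lay within its wide interval. Shares over all entries that share a locus were not computed at these 3 settings. A positive difference is common in general, with a median of 0.36 over all entries that reached 1 RPKM. The 3 entries without one stood at 1 read in both libraries. Raised neighbours, 15.3%, were 22.5% and 6.11% with pseudocounts of 0.1 and 5 (all entries 22.9% and 4.67%), 7.78% with the rescaling (all entries 7.45%), 10.3% with no floor (all entries 9.76%) and 24.2% within 5 kb, a distance added after the data were seen. Pairs or longer runs of member loci numbered 2 with a gap of 50 kb and 7 with 500 kb, against 4. Depth limits the WT side, where up to 43 members cannot be told from no read, the recovered reads being minima.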

Other observations

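Loci at which 1 entry met the rule while another entry had at least 1 RPKM in the library where the first was low numbered 9 of 18 loci with several entries for entries low in WT, and 3 of 5 for the mirror image, entries low in dek37. At 5 RPKM for the second entry the numbers were 3 of 18 and 1 of 5. At 4 of the 18 loci both entries were members, so the second entry was below 0.5 RPKM in WT by the rule. Over all entries, 58.1% had at least 1 RPKM in WT. The share over all loci with several entries was not computed, so whether an expressed second entry is particular to member loci is not known. The mirror-image entries lay on 27 loci and had a median of 6.73 RPKM in WT, and 11 of the 27 (40.7%) had the 1-read value in dek37, beside 47.8% at that value in WT among the 90 members.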
